A study of Mus musculus with 4 samples.

Results

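Topologically associating domains (TADs) that stand at the edge of a gap in the TAD map were described in haematopoietic stem cells (HSCs) of the mouse. The members were chosen from the deposited TAD lists themselves: TADs were sorted along each chromosome, every interval of at least 100 kb between the end of a TAD and the start of the next was called a stretch without a TAD, and the TADs directly before and after each stretch were taken. This gave 228 bordering TADs of 4628 TADs in all, of which 108 belonged to the fetal and 120 to the adult list. They enclosed 116 stretches, 55 fetal and 61 adult.

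Contacts were measured by Hi-C, which ligates DNA ends that are neighbours in the fixed nucleus and reads the junctions. The fetal samples were HSCs of the liver at embryonic day 14.5 and the adult samples HSCs of the bone marrow at 6 to 8 weeks of age, with 2 samples each. All 4 samples were from the strain B6129SF1, with no genotype or treatment named, and were sorted with the same surface markers (negative for lineage markers and CD135, positive for Sca1 and cKit). A TAD list has no expression values, so the sorted cells could not be checked against marker genes. The samples of a cell type share 1 list, so the spread between replicates cannot be given for any value, and all intervals cover counting error only. The depth of sequencing is unknown.

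A TAD is a stretch of chromosome whose parts contact each other more often than they contact the flanking DNA. In mammals most TADs are thought to form when cohesin extrudes DNA loops until it meets CTCF bound at convergent sites, and the borders tend to keep an enhancer from acting on genes of the next TAD. HSCs of the fetal liver divide and expand, while most HSCs of the adult bone marrow are quiescent. TAD lists usually tile a chromosome end to end, and an interval left out of the tiling is one in which the caller reported no domain. What the contact maps looked like inside such intervals was not analysed here.

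Stretches were few, long and set apart from the tiling. In the fetal list 2243 of 2298 pairs of neighbouring TADs adjoined with a gap of 0 kb, and in the adult list 2229 of 2290 did. The threshold of 100 kb therefore separated no close cases. The largest gap below it was 0 kb in both lists, and the smallest above it was 140 kb for fetal and 360 kb for adult TADs. Only 2 fetal stretches and 2 adult stretches were shorter than 2 Mb. Stretches of 4 Mb or more numbered 41 among the fetal and 49 among the adult ones. The median stretch was 4720 kb long in the fetal list (95% order-statistic interval 4250 to 5060) and 5130 kb in the adult list (4700 to 6090). These values chose the members and are given as a description.

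In sum the fetal stretches took up 271.2 Mb, or 10.6% of the length between the first and last TAD of each chromosome, and the adult stretches 359.5 Mb, or 13.99%. The adult stretches thus summed to 88.3 Mb more than the fetal ones. DNA outside the outermost TADs is not part of these sums. On chromosome 9, for example, the fetal TADs stopped at 119855000 and the adult TADs at 124075000. All TADs together took up 2294.5 Mb in the fetal and 2210.4 Mb in the adult list. Chromosome X held the most stretch length in proportion to its own length, with 7 fetal stretches over 29.5% of its span and 8 adult stretches over 35.9%. Chromosome 14 followed among the adult values, at 26.6%, against 15.4% in the fetal list. Chromosome 19 had no fetal stretch and chromosome 13 no adult stretch. Chromosomes 6, 9, 10, 16 and 18 had 1 stretch in each list. Chromosome 4 carried the most stretches of any autosome in the fetal list, 7, and as many as chromosome 1 in the adult list, 8 each.

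The longest stretch of either list lay on chromosome X. It ran over chrX:111735001-125765000 in the fetal list (14.03 Mb) and over chrX:111745001-125785000 in the adult list (14.04 Mb), with edges 10 kb and 20 kb apart. The next longest fetal stretches were chrX:23395001-33345000 (9.95 Mb) and chr7:38715001-48265000 (9.55 Mb), and the next longest adult ones were chr7:38695001-50495000 (11.8 Mb) and chr15:12785001-24435000 (11.65 Mb). At the other extreme, a stretch of 360 kb at chr1:184945001-185305000 had the same coordinates in both lists. A stretch of 140 kb at chr8:127535001-127675000 was the shortest fetal one, and adult TADs of 730 and 770 kb met inside it. The stretch at chr4:120905001-122925000 in the fetal list (2.02 Mb) recurred at chr4:120925001-122905000 in the adult list (1.98 Mb). The third shortest adult stretch, of 2590 kb at chr5:24725001-27315000, recurred 10 kb away in the fetal list with the same length.

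The stretches of the lists were then compared by position, to ask whether the same parts of the chromosomes were left out in both. Of the fetal stretch length, 93.4% lay in adult stretches, which took up 13.99% of the adult span. Of the adult stretch length 70.4% lay in fetal stretches, which took up 10.6% of the fetal span. The common length was 253.2 Mb, with a further 17.99 Mb in fetal stretches alone and 106.3 Mb in adult stretches alone. Of 55 fetal stretches, 50 overlapped an adult stretch, or 90.9% (95% exact Clopper-Pearson interval 80.05 to 96.98). Of 61 adult stretches, 49 overlapped a fetal one, or 80.3% (68.2 to 89.4). Among all TADs, 2226 of 2318 fetal ones touched no adult stretch and 2264 of 2310 adult ones no fetal stretch. Most TADs are much shorter than the stretches, so these counts are not a like comparison. For 22 stretches both edges lay within 40 kb of those of the partner, which is 40% of the fetal (27.0 to 54.1) and 36.1% of the adult stretches (24.2 to 49.4). In this group 5 stretches had identical coordinates, the median difference in length was 10 kb, and the largest was 70 kb.

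**Figure D1:**
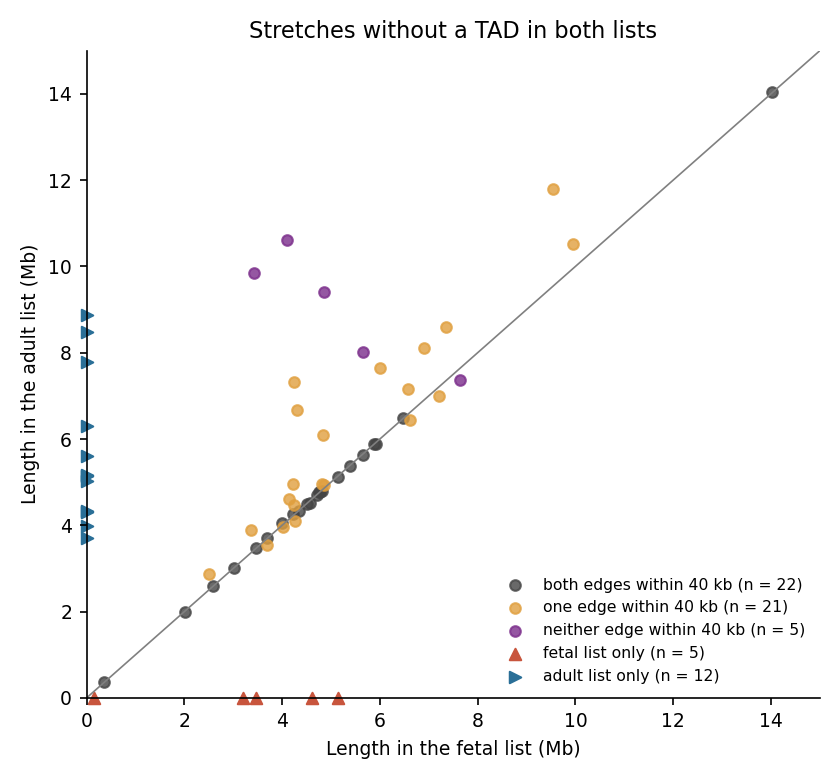
Length of each stretch without a TAD in the fetal list (x axis, Mb) and of its overlapping partner in the adult list (y axis, Mb), for the 48 pairs in which each stretch had a single partner. The grey line marks equal length, triangles on the axes are stretches without a partner, and the pairs not matched at both edges lie mostly above the line, 20 of 26.

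Where a pair did not match at both edges, the adult stretch was usually the longer. Besides the 22 matched pairs there were 26 pairs in which each stretch had a single partner, 21 with 1 edge within 40 kb and 5 with neither. The adult stretch was longer in 20 of the 26 and the fetal one in 6, with a median difference of 580 kb. All 11 differences of 1 Mb or more had the longer stretch in the adult list, and the largest fetal excess was 270 kb (adult minus fetal -270 kb). The matched edge was the left one, at the lower coordinate, in 11 pairs and the right one in 10. Of the 31 edges that were apart, the adult stretch reached further at 24 and the fetal stretch at 7. The displacements ran from 50 to 6370 kb. The 24 intervals in which only the fetal list had TADs summed to 36.7 Mb, and the 7 in which only the adult list had TADs summed to 0.97 Mb.

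The displaced edges were then placed on the TADs of the other list. At 14 of the 24 edges where the adult stretch reached further, it stopped within 40 kb of a fetal TAD end, while 83.4% of all adult TAD ends lay that close to a fetal one. Since TADs adjoin, fetal TADs that were whole to within 40 kb then lay between the edges, 1 TAD at 12 edges and more at 2. At the other 10 the adult stretch stopped inside a fetal TAD. On chromosome 7, for example, the fetal stretch chr7:64765001-69605000 was preceded by a bordering TAD of 1250 kb (chr7:63515001-64765000). The adult stretch ended at the same right edge and began at 63515001, so that it took in this TAD exactly. On chromosome 12 the fetal bordering TAD of 3090 kb, chr12:17835001-20925000, lay in the same way inside the adult stretch chr12:17835001-25145000. These 2 cases were chosen after their values were seen. The largest displacement was on chromosome 8, where the adult stretch chr8:49235001-59085000 covered 3 whole fetal TADs of 2170, 3410 and 790 kb before it met the fetal stretch chr8:55605001-59025000. In the opposite direction, 3 of the 7 fetal excesses ended at an adult TAD end, where 83.6% of all fetal ends lay that close to an adult one, each over a short bordering TAD, of 210 kb on chromosome 2, 120 kb on chromosome 4 and 150 kb on chromosome 8.

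**Figure D2:**
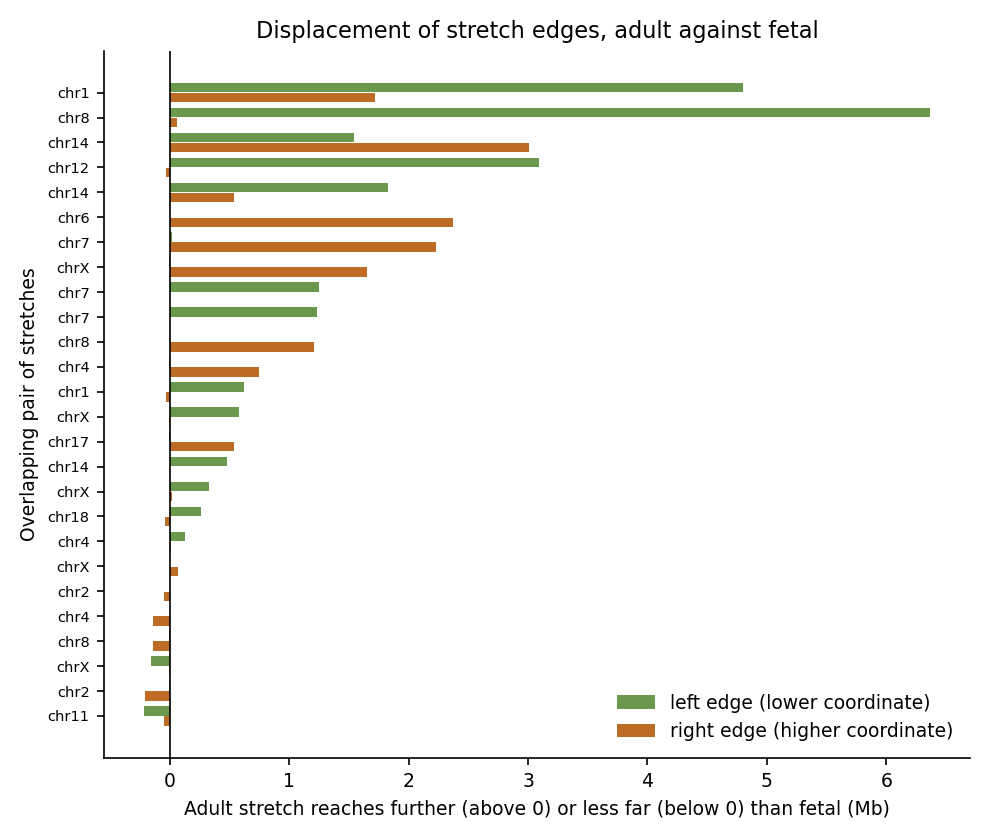
Distance by which the adult stretch reached beyond the fetal one (above 0) or stopped short of it (below 0), in Mb on the x axis, for the left and right edge of the 26 overlapping pairs not matched at both edges, labelled by chromosome and sorted by the difference in length. Bars to the right reach 6370 kb on chromosome 8, while no bar to the left exceeds 220 kb.

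Stretches of chromosome 15 stood in a different relation. There the adult list had a single stretch, chr15:12785001-24435000, over which the fetal list had 2 stretches, chr15:12815001-18735000 and chr15:19365001-24425000, separated by a lone fetal TAD of 630 kb (chr15:18735001-19365000). The outer edges differed by 30 and 10 kb. The difference between the lists at this place was thus 1 TAD.

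Stretches without any overlap numbered 12 in the adult list, 68.7 Mb in all, and 5 in the fetal list, 16.6 Mb in all. Because neighbouring TADs adjoin wherever no stretch lies between them, such stretches are covered in full by TADs of the other list by definition. The 5 longest adult ones were chr14:106335001-115205000 (8.87 Mb), chr3:41575001-50055000 (8.48 Mb), chrX:58355001-66145000 (7.79 Mb), chr12:93105001-99405000 (6.30 Mb) and chr4:77235001-82835000 (5.6 Mb). Over the chromosome 14 stretch the fetal list had whole TADs of 3290, 990 and 3980 kb, and over that of chromosome 3 whole TADs of 3290, 3600 and 1260 kb. The chromosome X stretch held 4 whole fetal TADs, of 2830, 1760, 2600 and 490 kb, the most of any stretch. A stretch of 5.15 Mb at chr2:106855001-112005000 held exactly 3, of 930, 1880 and 2340 kb, whose outer ends coincided with its edges. The fetal stretches without overlap were chr4:21925001-26535000, chr11:11205001-16355000, chr13:91045001-94505000, chr14:52965001-56165000 and the 140 kb interval on chromosome 8. The adult list had a single TAD of 3220 kb over the one on chromosome 14 (chr14:52955001-56175000) and a TAD of 4470 kb over most of that on chromosome 11.

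**Figure D3:**
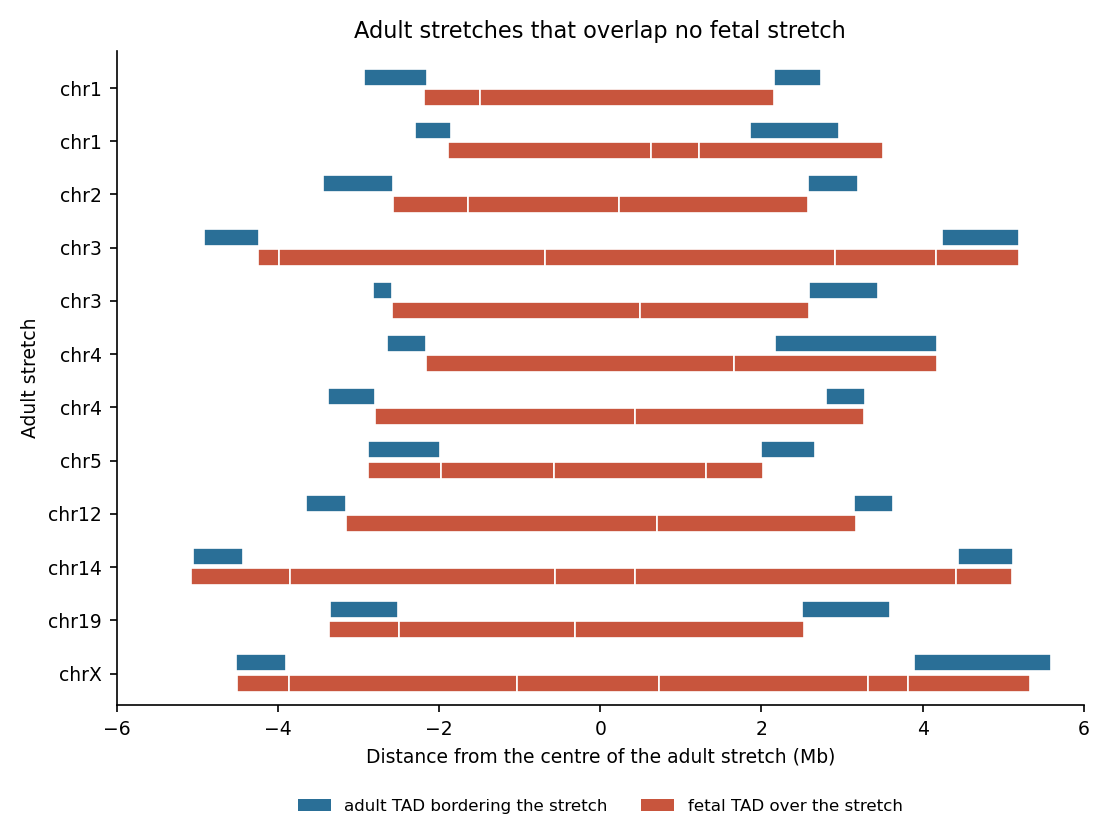
The 12 adult stretches that overlap no fetal stretch, each centred at 0 on the x axis (distance in Mb). Blue bars are the adult TADs that border the stretch and red bars the fetal TADs over it, with white lines at fetal TAD ends, and the number of fetal TADs over a gap between blue bars runs from 2 to 6.

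The fetal TADs that lay where the adult list had none were long. Adult stretches held 39 whole fetal TADs with a median of 1880 kb (990 to 2600), against 780 kb (750 to 810) for the 2279 fetal TADs inside no adult stretch. Of the 39, 17 were 2 Mb or longer, or 43.6% (27.8 to 60.4), against 8.93% of all fetal TADs (7.80 to 10.2). A TAD must be shorter than a stretch to lie whole within it, so this count favours short TADs. The reverse set was small, since fetal stretches held only 5 whole adult TADs, of 120 to 2470 kb. Of the 39 fetal TADs, 14 themselves bordered a fetal stretch, as did 108 of all 2318 fetal TADs. A fetal bordering TAD falls inside an adult stretch only where that stretch reaches past the whole TAD. This number is therefore not independent of the displaced edges.

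The TADs that border the stretches were, by contrast, not longer in the median than the other TADs. In the fetal list their median was 770 kb (660 to 990), beside 790 kb (760 to 820) for the 2210 TADs that border no stretch. In the adult list it was 680 kb (620 to 770), beside 765 kb (740 to 790) for 2190 others. The intervals overlapped in both lists, which does not show that the lengths are equal. The fetal means ran the other way, at 1034 kb for bordering TADs and 987.7 kb for the others. The adult means, 939.2 and 957.9 kb, ran the same way as the medians. The quartiles of bordering TADs were 537.5 and 1347.5 kb for fetal and 510 and 1205 kb for adult TADs. TADs before and after a stretch had medians of 740 and 760 kb among fetal and of 670 and 690 kb among adult TADs, so no asymmetry along the chromosome was detectable. At places 2, 3, 4 and 5 counted from a stretch the fetal medians were 830, 790, 890 and 725 kb, and the adult medians 770, 850, 670 and 735 kb, with no steady trend.

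Single bordering TADs ran from 130 to 3500 kb in the fetal list, where all TADs ran from 110 to 4690 kb. In the adult list they ran from 120 to 3700 kb, and all TADs from 110 to 4670 kb. The longest in the adult list was the first TAD of chromosome 9, chr9:3005001-6705000, at 3700 kb. The fetal list had a TAD end inside it, and its bordering TAD at the same stretch was chr9:4485001-6705000, at 2220 kb. The longest in the fetal list, chr5:54555001-58055000 at 3500 kb, had the same coordinates in the adult list. Among the adult bordering TADs only that on chromosome 9 was longer. The fetal TAD of 2870 kb at chr7:13645001-16515000 had an adult counterpart of 2860 kb. The shortest bordering TADs were a fetal TAD of 130 kb at chr4:89255001-89385000 and an adult TAD of 120 kb at chr4:44205001-44325000, each of which lay inside a stretch of the other list. The next shortest were fetal TADs of 160 kb (chr4:44345001-44505000) and 170 kb (chr4:120735001-120905000) and adult TADs of 150 kb (chr8:23085001-23235000) and 210 kb (chr2:101285001-101495000). The fetal TAD of 160 kb had a counterpart of 200 kb by a reciprocal overlap of at least 80%. The adult TAD of 210 kb lay whole inside a fetal stretch, where no counterpart is possible.

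**Figure D4:**
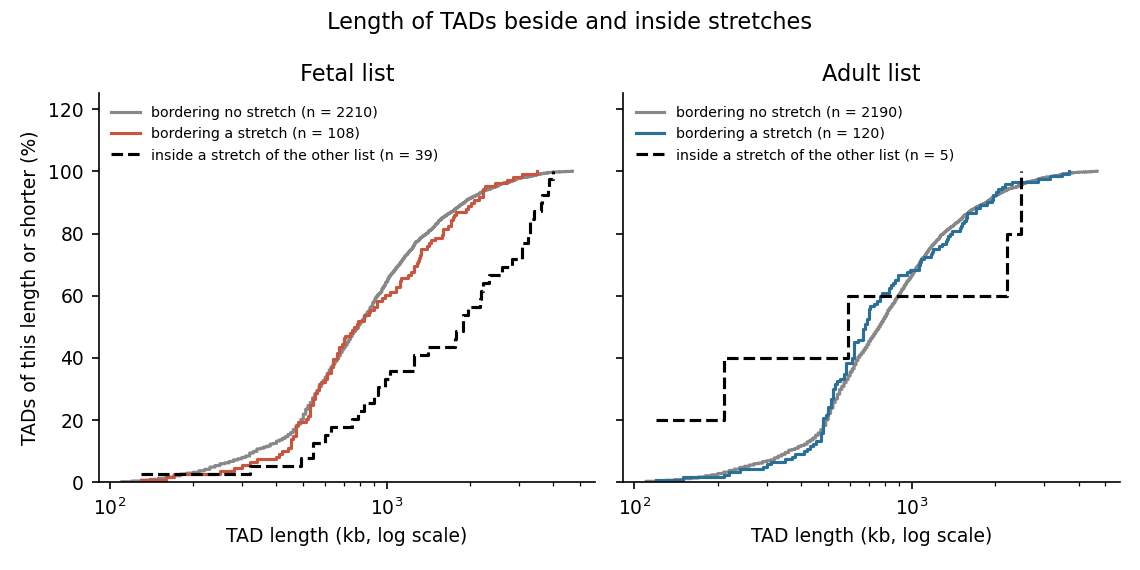
Cumulative share of TADs (y axis, percent) by length (x axis, kb, log scale) in the fetal and the adult list, for TADs bordering no stretch, TADs bordering a stretch, and whole TADs inside stretches of the other list. The curves of bordering and other TADs run close to each other, while the 39 fetal TADs inside adult stretches lie to the right, with a median of 1880 kb.

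The positions of the bordering TADs were compared between the lists next. An end was called shared when a TAD end of the other list lay within 40 kb, which held for 83.6% of all fetal and 83.4% of all adult TAD ends. Of the fetal ends that face a stretch, 78 of 110 were shared, or 70.9% (61.5 to 79.2), and of the adult ones 99 of 122, or 81.1% (73.1 to 87.7). Of the far ends, on the side away from the stretch, 82 of 106 were shared in the fetal list, or 77.4% (68.2 to 84.9), and 101 of 118 in the adult list, or 85.6% (77.9 to 91.4). The intervals of both adult values and of the fetal far ends included the share of all ends of their list. The interval of the fetal stretch-side ends lay below it. TADs with a stretch on both sides have no far end, so they enter the stretch-side counts with both ends and the far-end counts not at all.

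The stretch edges were also sorted by what the other list had at the same position. An end inside a stretch of the other list can be shared only near the edge of that stretch, so these positions and the shares above describe the same differences and are not independent of each other. In all, 67 of the 110 fetal stretch edges coincided within 40 kb with the same edge of an adult stretch, 11 with the end of an adjoining adult TAD, 26 lay inside an adult stretch and 6 inside an adult TAD. Of the 122 adult stretch edges, 67 coincided with the same edge of a fetal stretch, 32 with the end of an adjoining fetal TAD, 7 lay inside a fetal stretch and 16 inside a fetal TAD. Among the 67 edges common to both lists, 21 were at the identical position and 48 within 10 kb, which is 1 step of the grid on which the coordinates lie.

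Whole bordering TADs were matched by a reciprocal overlap of at least 80%, which 73.4% of all fetal and 73.7% of all adult TADs reached. In the fetal list 65 of 108 bordering TADs had such a counterpart, or 60.2% (50.3 to 69.5), and in the adult list 88 of 120, or 73.3% (64.5 to 81.0). The fetal interval lay below the share of all fetal TADs. A TAD that lies mostly in a stretch of the other list can have no counterpart there. This count too is therefore not independent of how far the adult stretches extended. Counterparts were found for 67.96% of fetal TADs at place 2 from a stretch, 75.8% at place 3 and 75.6% at place 4. For adult TADs the values were 77.5%, 74.3% and 75%.

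**Figure D5:**
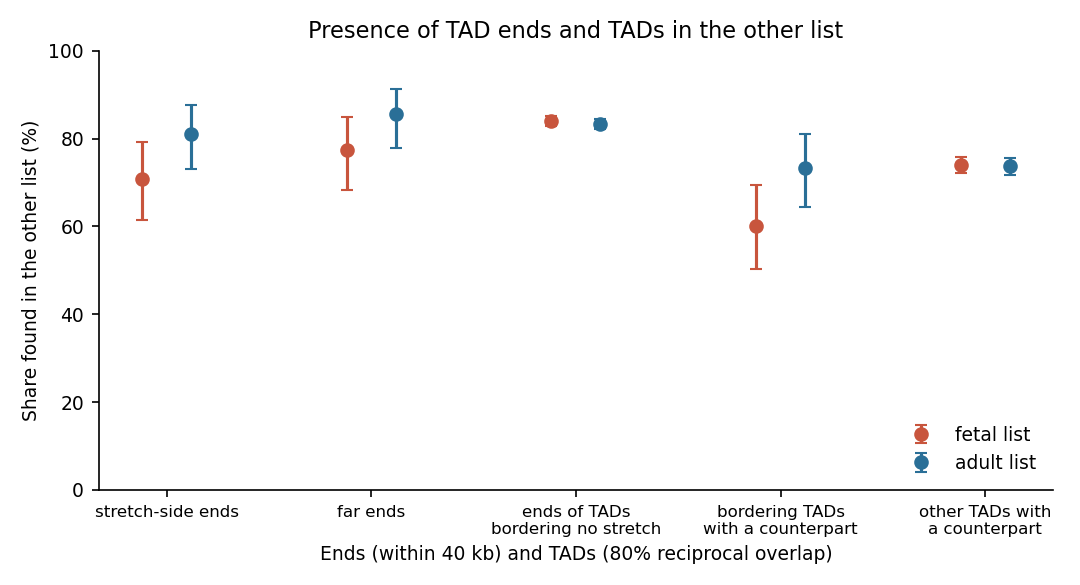
Share (y axis, percent) of TAD ends within 40 kb of an end in the other list and of TADs with a counterpart of at least 80% reciprocal overlap, for the fetal and the adult list, with 95% exact Clopper-Pearson intervals. Bordering TADs of the fetal list sit lowest, with a counterpart for 60.2%, while those of the adult list, at 73.3%, lie at the level of other TADs.

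At the 22 stretches matched at both edges, the bordering TADs of the lists could be set against each other side by side. On 31 of the 44 sides their far ends lay within 40 kb as well, or 70.5% (54.8 to 83.2), 16 of 22 before and 15 of 22 after the stretch. This count asks for the far end of the bordering TAD itself. Over all TADs, where any end of the other list counts, the shares were the 83.6% and 83.4% given above. Both bordering TADs were kept in this sense at 11 stretches, 1 of them at 9 and neither at 2. Among the 13 sides with far ends apart, the fetal TAD was longer on 6 and the adult TAD on 7, so the differences did not run one way. The stretches chr1:24855001-30735000 and chr1:146245001-151625000 had identical edges and identical bordering TADs, of 580 and 530 kb at the first and 670 and 610 kb at the second, and were picked out after their values were seen.

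The 3 longest stretches matched at both edges differed in the TADs beside them. Before the stretch of 14 Mb on chromosome X the fetal list had a TAD of 2230 kb (chrX:109505001-111735000) and the adult list one of 510 kb (chrX:111235001-111745000), while the TADs after it were of 700 and 680 kb and ended at the same coordinate, 126465000. At chr9:6705001-13185000 (6.48 Mb in both lists), neither bordering TAD was kept: the fetal TADs measured 2220 and 470 kb and the adult ones 3700 and 1380 kb. At chr3:109335001-115245000 in the fetal list and 20 kb less in the adult list (5.91 and 5.89 Mb), the TAD before was 870 kb long at the fetal and 1350 kb at the adult stage, and the TAD after, of 470 and 490 kb, ended at the same position.

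Chromosome X had stretches in both lists at 7 places and 1 more in the adult list, that at chrX:58355001-66145000. Apart from the longest, the stretch chrX:143445001-146915000 had the same edges in both lists, with bordering TADs of 1310 and 1330 kb (fetal) and of 1290 and 1330 kb (adult). The other 5 places had 1 edge within 40 kb. The stretch chrX:75065001-81075000 of the fetal list (6.01 Mb) corresponded to chrX:75075001-82725000 in the adult list (7.65 Mb), where its right edge stopped inside the fetal bordering TAD of 1710 kb. The adult stretch chrX:22815001-33335000 reached 580 kb further to the left than the fetal one, into a fetal TAD of 2460 kb, and the adult stretch chrX:50745001-53605000 reached 330 kb further than the fetal stretch chrX:51075001-53585000, over a fetal TAD of 320 kb. The stretch chrX:39885001-44745000 of the fetal list was 70 kb longer in the adult list. The fetal stretch chrX:83655001-90265000 was the only one on this chromosome to exceed its adult partner, chrX:83815001-90255000, by more than 40 kb at an edge.

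Lone TADs with a stretch on each side were rare, 2 in each list. The TAD chr4:40025001-40665000 of the fetal list (640 kb) and chr4:40045001-40665000 of the adult list (620 kb) formed such an island at the same place. The fetal island of 630 kb on chromosome 15 lay inside an adult stretch, as described above. The adult island chr14:84785001-87935000 (3150 kb) had no equivalent, since the fetal list had 3 adjoining TADs from 84785001 to 89475000 there, the first of them 2260 kb long.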

How the data were processed

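The authors deposited 1 TAD list per cell type, named in the labels of both of its samples, with chromosome, start and end in base pairs and no score (other values: coordinates only). The submitters' processing notes name HiC-Pro, GSNAP and the build mm9, without role or version. No source used here gives the TAD caller, its settings, the pooling of samples or the depth, and each could change where TADs and gaps are drawn. Coordinates are printed 1-based in mm9. All stretch edges lay on a grid of 10 kb. The gene and sequence tables at hand are of another build, so genes and sequences at these positions were not analysed here.

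Stretches, bordering TADs, matches and overlaps were computed in Python 3.11.15, with exact Clopper-Pearson intervals from SciPy 1.17.1. Medians carry 95% order-statistic intervals. TADs are not replicates of a condition, so no p-value was computed. The functions were tested on simulated data with 114 planted stretches, all 114 of which were recovered, 38 of 38 matched at both edges. The members, definitions and settings were chosen with earlier results of these data known. Named were the 3 longest and 3 shortest stretches per list, the 3 longest matched at both edges, up to 5 longest without overlap, those holding most whole TADs of the other list, those of chromosome X, the bordering TADs at the ends of the length range and TADs between stretches; other examples are marked as chosen afterwards. Alternatives changed the minimum length, the chromosomes, the tolerance, the overlap and the average.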

Additional observations from a re-analysis of the deposited data

How the results depend on the processing

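No gap lay between 0 and 100 kb, so a minimum stretch of 10 kb selected identical stretches and could move no value. Of the other 92 alternative values, 71 stayed inside the interval of the reported value (counts: within 1.5 times) and 21 did not. A minimum of 1 Mb and the autosomes alone moved none of their 18 values each. The minimum of 1 Mb kept 53 of 55 fetal and 60 of 61 adult stretches, so it could change little. The autosomes held 48 of the fetal and 53 of the adult stretches, so the same holds for them. The limit of 1.5 times is wider than the difference between the lists in number and summed length of stretches. It therefore cannot show whether that difference was kept. On the autosomes the summed lengths were 223.8 Mb fetal and 301.8 Mb adult. A minimum of 4 Mb moved 1, the whole adult TADs inside fetal stretches, from 5 to 3. These became 10 when a TAD at least 50% inside counted, and also 10 when a TAD could protrude by 40 kb. At a tolerance of 0 kb, 9.09% of fetal and 8.20% of adult stretches matched at both edges, stretch-side ends were shared for 20.9% and 28.7%, and far ends for 29.2% and 32.2%. Adult stretch-side sharing was 70.5% at 20 kb and 90.2% at 100 kb. Matching by any overlap gave 90.9% of fetal and 80.3% of adult stretches, and by 80% reciprocal overlap 72.7% and 65.6%. Mean lengths of bordering TADs were 1034 kb fetal and 939.2 kb adult, beside 987.7 and 957.9 kb for TADs bordering no stretch. At 50% reciprocal overlap, 75% of fetal and 89.2% of adult bordering TADs had a counterpart. Looser limits admit more by construction. At tolerances other than 40 kb and overlaps other than 80%, the shares over all ends and all TADs were not computed. The values at these settings therefore cannot be called high or low against the rest of the lists.

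Restrictions chosen after seeing the data gave 90.8% shared fetal stretch-side ends outside adult stretches (81.0 to 96.5). Under the same limit 85.0% of the ends of fetal TADs bordering no stretch were shared. Of fetal bordering TADs touching no adult stretch, 71.9% had a counterpart (59.2 to 82.4), against 75.2% of all fetal TADs touching none. Both restrictions leave out members in or touching adult stretches, where a partner can be missing by construction, so the higher values explain nothing. No paired analysis was possible because each cell type has 1 list, and no replicate could be left out. Depth is unknown, and differences in depth, in age and in tissue (liver against bone marrow) cannot be told apart.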

Other observations

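The runs of adjoining TADs between stretches are given as a description of how the map was broken up. Their number follows from the number of stretches on each chromosome, and more stretches leave shorter runs. They are therefore not independent of the values that chose the members. Runs with a stretch at each end numbered 36 in the fetal list, with a median of 19 TADs and 19.7 Mb, and 42 in the adult list, with a median of 17 TADs and 14.3 Mb. The longest such run held 92 TADs over 82.4 Mb in the fetal list and 62 TADs over 62.1 Mb in the adult list. Runs of 3 TADs or fewer numbered 5 in each list.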
